A study of Mus musculus with 20 samples.

Results

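The cholesterol and fatty acid synthesis genes described here are 34 mouse genes, taken by symbol from a table of read counts for 56941 gene IDs. They are 18 enzymes that build cholesterol from acetyl-CoA, 5 regulators of the pathway, the sterol carrier Stard4 and 10 genes of fatty acid synthesis, activation, elongation and desaturation. All 34 symbols had a row, and 32 of them passed the filter on low counts and were tested among 13755 genes. The desaturase genes Scd1 and Fads2 did not pass it and are given as reads.

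RNA was sequenced from BV-2, a microglia-derived mouse cell line that has been immortalized, either labelled as an RGS10 knockout (KO) or as wild type (WT). RGS10 is a regulator of G-protein signalling. Each line received IFNγ, an interferon that activates macrophages, at 10 ng/mL, or medium alone (vehicle), for 48 h. The 4 groups are KO with IFNγ, KO with vehicle, WT with IFNγ and WT with vehicle, each with 5 libraries: replicates 1 to 3 are batch 1, replicate 4 is batch 2 and replicate 5 is batch 3. The labels call the replicates biological without giving a culture history, and they do not say how RGS10 was disrupted or whether the knockout is 1 clone, and p-values therefore describe only how far these libraries of 1 cell line spread.

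Animal cells make cholesterol from acetyl-CoA through mevalonate, isoprenoid units, squalene and lanosterol, and they make fatty acids from the same acetyl-CoA through malonyl-CoA. Both routes are switched on by SREBP transcription factors, which Scap carries from the endoplasmic reticulum to the Golgi for cleavage when sterols are low, and which the Insig proteins hold back when sterols are high. In macrophages, sterol synthesis is known to be damped by interferon, and the lipids made by this pathway feed membranes, isoprenoid anchors and oxysterols.

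SREBP binds promoters together with the CCAAT factor NF-Y, so the 250 bases before the annotated start are shown for 5 members whose counts are described below. The sequences are RefSeq's for GRCm38.p6, 5′ to 3′ on the strand of the gene, with CCAAT on either strand (so also ATTGG), TCACNCCAC and CACGTG in capitals. Hmgcs1 (chr13:119690101-119690350, plus strand) is the member that holds the letters of a sterol regulatory core. Idi1 (chr13:8885356-8885605, plus strand) and Cyp51 (chr5:4104698-4104947, minus strand) are enzymes that fell with IFNγ in both lines. Hsd17b7 (chr1:169969206-169969455, minus strand) was far higher in KO cells, and Insig1 (chr5:28071162-28071411, plus strand) fell in WT cells.
Hmgcs1: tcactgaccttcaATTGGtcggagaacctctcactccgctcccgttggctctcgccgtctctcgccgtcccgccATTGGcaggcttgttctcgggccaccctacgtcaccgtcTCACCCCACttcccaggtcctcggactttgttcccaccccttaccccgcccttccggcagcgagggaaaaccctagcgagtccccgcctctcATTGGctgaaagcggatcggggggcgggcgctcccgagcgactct
Idi1: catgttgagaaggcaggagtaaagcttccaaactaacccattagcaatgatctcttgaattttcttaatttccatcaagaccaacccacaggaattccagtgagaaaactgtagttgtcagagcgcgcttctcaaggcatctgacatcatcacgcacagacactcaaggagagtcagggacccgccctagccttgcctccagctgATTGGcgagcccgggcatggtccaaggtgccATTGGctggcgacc
Cyp51: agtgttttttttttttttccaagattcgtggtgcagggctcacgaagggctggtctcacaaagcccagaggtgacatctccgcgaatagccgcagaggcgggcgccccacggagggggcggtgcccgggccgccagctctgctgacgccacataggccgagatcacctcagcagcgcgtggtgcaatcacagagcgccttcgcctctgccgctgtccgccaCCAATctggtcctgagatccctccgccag
Hsd17b7: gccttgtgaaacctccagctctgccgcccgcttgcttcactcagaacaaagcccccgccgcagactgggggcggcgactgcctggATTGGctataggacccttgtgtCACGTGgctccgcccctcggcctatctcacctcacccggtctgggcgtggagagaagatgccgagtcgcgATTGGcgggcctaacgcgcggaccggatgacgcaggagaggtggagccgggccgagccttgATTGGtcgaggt
Insig1: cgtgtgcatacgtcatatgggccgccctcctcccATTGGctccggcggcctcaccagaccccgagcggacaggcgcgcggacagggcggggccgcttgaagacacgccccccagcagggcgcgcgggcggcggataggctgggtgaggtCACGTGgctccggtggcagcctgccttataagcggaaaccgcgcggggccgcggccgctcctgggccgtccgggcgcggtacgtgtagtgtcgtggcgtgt

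Of the 34 members, 27 had a promoter in the RefSeq table, some with several starts. The letters CCAAT were searched on both strands and counted also where they overlapped another match. They stood within 250 bases of a start in 21 of the 27, against 37.5% of all genes with an entry. TCACNCCAC, the sterol core, was found in 1 member, Hmgcs1, where it lies 137 bases before the start, against 1.22% of genes. The E-box CACGTG was found in 5 members (Hsd17b7, Sc5d, Dhcr7, Scap and Insig1), against 6.86% of genes. A match is a description of the letters and not of a bound site.

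The libraries held 15866749 to 29157740 counts, and Rgs10 was read in every one of them. Rgs10 ran from 15.5 to 50.5 CPM (reads relative to the TMM-scaled library size) in KO IFNγ libraries, 22.6 to 34.6 CPM in KO vehicle, 22.2 to 49.97 CPM in WT IFNγ and 55.1 to 73.0 CPM in WT vehicle, so its groups separated with vehicle and overlapped with IFNγ, and reads outside a disrupted stretch would not check the knockout. Of 10 microglia and macrophage markers, 8 exceeded 10 CPM in every library, with a summed level of 4866 to 7278 CPM in KO IFNγ, 3046 to 3420 CPM in KO vehicle, 8168 to 13400 CPM in WT IFNγ and 4705 to 6969 CPM in WT vehicle libraries. The lists of 5 neuronal, 5 astrocyte, 5 oligodendrocyte and 5 fibroblast markers summed to at most 24.9 CPM in any library, and Aqp4, Mog, Olig1 and Col3a1 were at 0 in all of them. The IFNγ libraries of batches 2 and 3 stood apart from the other 16: their TMM factors were 0.892 and 0.880 in KO and 0.635 and 0.764 in WT, against 1.01 to 1.12 elsewhere. Their 10 most abundant genes took 9.72% and 9.46% of counts in KO and 17.1% and 14.7% in WT, against 3.88% to 7.86% elsewhere, and Malat1, a nuclear RNA, stood at 1446 and 1004 CPM of plain library totals in KO and 1514 and 955 CPM in WT, against 51.4 to 386 CPM elsewhere. Results are therefore given by batch where they rest on these libraries.

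Per kilobase of exon (RPKM, with exon lengths from GENCODE vM21), the desaturase Scd2 was the most abundant member, at 208 RPKM in KO vehicle and 207 RPKM in WT vehicle cells (means of 5). Next in KO vehicle cells came Fdps at 80.4, Acly at 57.7 and Srebf1 at 49.9 RPKM. The least abundant tested members in KO vehicle cells were Acss2 at 0.786 and Tm7sf2 at 1.03 RPKM. In WT vehicle cells Stard4 was lowest, at 0.262 RPKM, followed by Hsd17b7 at 0.720 RPKM.

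**Figure D1:**
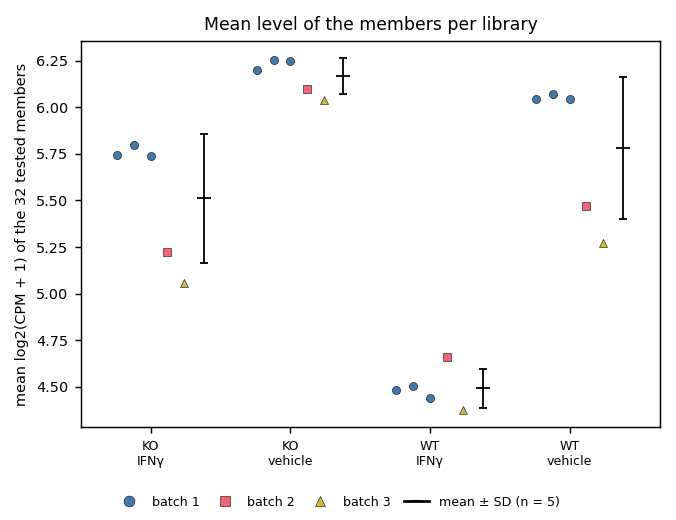
Mean log2(CPM + 1) of the 32 tested members in each library, by group, with batch shown by colour and shape and the mean ± SD of 5 libraries as a bar. KO IFNγ libraries ran from 5.06 to 5.80, KO vehicle from 6.04 to 6.25, WT IFNγ from 4.38 to 4.66 and WT vehicle from 5.27 to 6.07. The 2 later libraries of KO IFNγ, KO vehicle and WT vehicle lie below batch 1 of their group. In WT IFNγ, batch 2 lies above batch 1 and batch 3 below it.

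Averaged over the 32 tested members, the level in a library was lowest in WT cells with IFNγ and highest in KO cells with vehicle. Every KO IFNγ library lay above every WT IFNγ library in the plot of mean levels, and every IFNγ library lay below every vehicle library of its own line. In bulk RNA, a lower level in every cell and fewer cells with the transcript cannot be told apart.

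With IFNγ, most of the pathway fell in both lines. In KO cells 23 of the 32 members fell and 2 rose, Insig2 and Acss2, against 21.8% of all tested genes that fell and 21.4% that rose (edgeR quasi-likelihood test with group and batch, Benjamini-Hochberg adjusted p under 0.05). The median log2 change of the members was −0.67 in KO cells, against −0.02 over all genes. In WT cells 26 members fell and 1 rose, Insig2, against 29.9% and 28.98% of all tested genes, and the median log2 change was −1.23 against 0.01 over all genes. Every IFNγ library lay below every vehicle library for 17 members in KO cells, against 14.2% of all genes, and for 21 members in WT cells, against 18.2%. With batches 2 and 3 alone (8 libraries), the WT falls of Hmgcs1, Mvk, Sqle, Lss, Nsdhl, Hsd17b7 and Sc5d did not pass. Neither did those of Dhcr7, Srebf1, Srebf2, Scap, Stard4 and Acss2. In KO cells the falls of Hmgcs1, Fdft1, Lss, Sc5d, Scap and Srebf2 and the rise of Acss2 did not pass there.

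**Figure D2:**
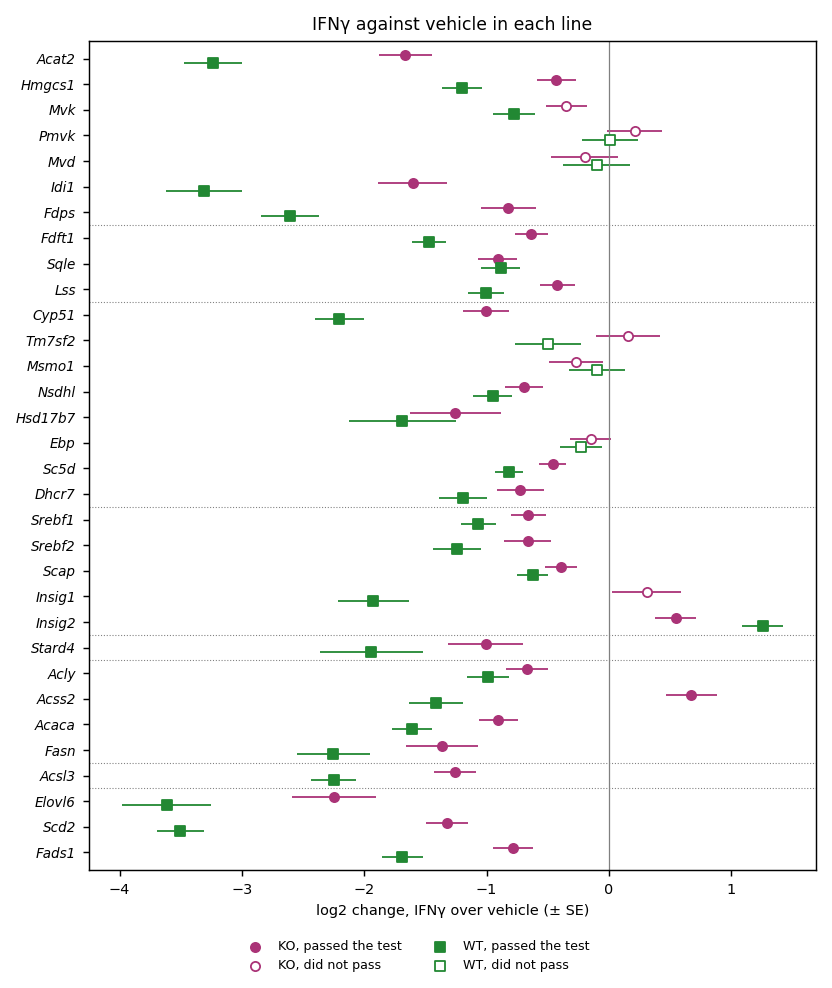
Log2 change with IFNγ over vehicle (± SE) of the 32 tested members in KO cells (circles) and WT cells (squares), with filled symbols for members that passed the test and dotted lines between roles. Elovl6 had the lowest value in both lines, −2.25 in KO and −3.62 in WT cells, and Insig2 rose in both; Acss2 rose in KO cells and fell in WT cells.

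The mevalonate branch starts with Acat2, the cytosolic thiolase (here ENSMUSG00000023832) that joins acetyl-CoA units. Acat2 had 34.9, 37.3, 31.9, 11.1 and 7.79 CPM in KO IFNγ libraries 1 to 5 and 67.4, 71.5, 70.1, 57.2 and 57.9 CPM in KO vehicle libraries. In WT cells it had 6.64, 7.80, 6.74, 3.90 and 2.29 CPM with IFNγ and 66.3, 71.9, 70.9, 29.6 and 24.2 CPM with vehicle. IFNγ libraries lay below vehicle libraries in both lines with no overlap, and in all 4 groups the libraries of batches 2 and 3 were below those of batch 1. The log2 change with IFNγ was −1.67 ± 0.22 (adjusted p = 7.3e-06) in KO and −3.24 ± 0.23 (adjusted p = 1.7e-09) in WT cells. KO against WT, Acat2 was higher with IFNγ, by 2.08 ± 0.23 (adjusted p = 7.9e-07), and did not pass the test with vehicle, at 0.50 ± 0.21 (adjusted p = 0.0837), though it did without KO vehicle replicate 1 (log2 0.62, adjusted p 0.046).

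Hmgcs1, which makes HMG-CoA and carries the sterol core shown above, had 54.2, 57.3, 62.3, 73.1 and 44.5 CPM in KO IFNγ and 76.7, 75.8, 78.4, 95.4 and 65.2 CPM in KO vehicle libraries. In WT libraries it had 21.1, 18.5, 21.5, 14.3 and 23.8 CPM with IFNγ and 53.9, 58.1, 48.5, 41.5 and 31.3 CPM with vehicle. Every KO library exceeded every WT library of the same treatment. The log2 change with IFNγ was −0.43 ± 0.16 (adjusted p = 0.0344) in KO and −1.20 ± 0.16 (adjusted p = 3.9e-06) in WT cells, and KO against WT it was 1.53 ± 0.17 (adjusted p = 6.2e-07) with IFNγ and 0.76 ± 0.16 (adjusted p = 0.00132) with vehicle. The fall in KO cells did not pass without KO vehicle replicate 4 or 5 or KO IFNγ replicate 1, 2 or 5 (log2 −0.45 to −0.34, adjusted p 0.051 to 0.13). An antisense RNA, Gm48342, shares 12.1% of the Hmgcs1 exon length, and no strand setting is given for the counts.

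The next enzymes of the branch split. Mvk, mevalonate kinase, fell in WT cells (log2 −0.78 ± 0.17, adjusted p = 5.9e-04), was at log2 −0.35 ± 0.17 (adjusted p = 0.0963) in KO cells, and was higher in KO than in WT cells with IFNγ, by 0.55 ± 0.17 (adjusted p = 0.0137), a call lost without KO IFNγ replicate 2 (log2 0.45, adjusted p 0.051), when the fall in KO cells passed (log2 −0.46, adjusted p 0.042). That difference between the lines was 0.87, −0.26 and 0.09 in batches 1, 2 and 3 on the log2(CPM + 1) scale. Pmvk and Mvd, the kinase and decarboxylase that follow, passed in neither line: Pmvk was at 0.21 in KO and 0.01 in WT cells, and Mvd at −0.20 and −0.10. Their WT values differed by batch, at −0.63, 1.11 and 0.75 for Pmvk and −0.68, 1.18 and 0.75 for Mvd in batches 1, 2 and 3 on the log2(CPM + 1) scale, with the sign of batch 1 opposite to that of the later batches.

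Idi1, the isomerase of isopentenyl diphosphate, had 19.6, 18.7, 19.1, 1.87 and 5.82 CPM in KO IFNγ and 41.0, 40.7, 40.8, 22.3 and 23.1 CPM in KO vehicle libraries. In WT libraries it had 3.02, 3.57, 2.79, 2.57 and 1.61 CPM with IFNγ and 44.1, 40.9, 36.8, 14.4 and 10.6 CPM with vehicle. IFNγ and vehicle did not overlap in either line, while KO IFNγ replicate 4 fell among the WT IFNγ libraries. Idi1 fell, with log2 changes of −1.61 ± 0.28 (adjusted p = 1.5e-04) in KO and −3.31 ± 0.31 (adjusted p = 4.4e-08) in WT cells, and it was higher in KO cells with IFNγ, by 2.06 ± 0.31 (adjusted p = 2.9e-05). That difference was 2.29, −0.31 and 1.39 in batches 1, 2 and 3 on the log2(CPM + 1) scale.

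Fdps, which makes farnesyl diphosphate for sterols and protein prenylation, had 246, 236, 246, 229 and 75.8 CPM in KO IFNγ and 358, 341, 333, 321 and 339 CPM in KO vehicle libraries. Its WT values were 35.8, 43.2, 39.0, 50.7 and 27.5 CPM with IFNγ and 322, 303, 348, 142 and 133 CPM with vehicle. The WT IFNγ libraries were below all others, and the later libraries of KO IFNγ and WT vehicle were below batch 1 of their group. Fdps fell, with log2 changes of −0.83 ± 0.23 (adjusted p = 0.00593) in KO and −2.61 ± 0.24 (adjusted p = 2.8e-08) in WT cells, and was 5.02-fold higher in KO than in WT cells with IFNγ (log2 2.33 ± 0.23, adjusted p = 2.5e-07). An annotated gene on the same strand, Gm43738, shares 26.7% of its exon length, so its counts are uncertain in level.

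Squalene synthase, squalene epoxidase and lanosterol synthase, encoded by Fdft1, Sqle and Lss, fell in both lines. Fdft1 had 34.6, 34.7, 33.6, 43.6 and 24.8 CPM in KO IFNγ and 52.8, 53.2, 48.3, 57.5 and 50.5 CPM in KO vehicle libraries. In WT cells it had 11.0, 11.0, 9.95, 17.9 and 11.3 CPM with IFNγ and 35.5, 39.4, 36.4, 31.4 and 24.8 CPM with vehicle. None of the 4 pairings of line or treatment that were compared overlapped, and Fdft1 was 2.81-fold higher in KO than in WT cells with IFNγ (log2 1.49 ± 0.14, adjusted p = 1.1e-07). The log2 change with IFNγ was −0.63 ± 0.14 (adjusted p = 8.7e-04) in KO and −1.47 ± 0.14 (adjusted p = 4.7e-08) in WT cells. The cathepsin gene Ctsb on the opposite strand shares 18.3% of the Fdft1 exon length, so reads from that stretch may have been counted for either gene.

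Sqle had 66.4, 75.7, 77.0, 66.0 and 63.9 CPM in KO IFNγ and 136, 135, 134, 127 and 123 CPM in KO vehicle libraries. In WT cells the values were 53.8, 51.9, 55.5, 77.8 and 42.6 CPM with IFNγ and 132, 128, 129, 75.3 and 63.9 CPM with vehicle. The KO groups separated, whereas WT IFNγ replicate 4 lay above both later WT vehicle libraries. Its log2 change was −0.91 ± 0.16 (adjusted p = 1.3e-04) in KO and −0.89 ± 0.16 (adjusted p = 8.7e-05) in WT cells, and KO against WT passed under neither treatment (0.32 with IFNγ, 0.34 with vehicle). Without WT IFNγ replicate 4 it passed under both (log2 0.51, adjusted p 0.0054 with IFNγ; log2 0.36, adjusted p 0.032 with vehicle). Lss fell, with log2 changes of −0.43 ± 0.14 in KO, a call lost without KO vehicle replicate 5 (log2 −0.34, adjusted p 0.081), and −1.01 ± 0.15 in WT cells.

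Of the 8 enzymes from lanosterol to cholesterol, 5 fell in KO cells, against 21.8% of all tested genes. The same 5 fell in WT cells, against 29.9%: Cyp51, Nsdhl, Hsd17b7, Sc5d and Dhcr7. Cyp51, the lanosterol demethylase, had 68.3, 70.2, 73.1, 23.9 and 25.2 CPM in KO IFNγ and 112, 109.6, 113, 59.8 and 76.9 CPM in KO vehicle libraries. In WT libraries it had 14.6, 15.8, 15.0, 9.43 and 7.05 CPM with IFNγ and 91.4, 100.1, 84.9, 24.2 and 21.5 CPM with vehicle. Batches 2 and 3 were lower than batch 1 in all 4 groups, and KO IFNγ values of batch 1 overlapped later KO vehicle values. The log2 change with IFNγ was −1.003 ± 0.19 (adjusted p = 3.0e-04) in KO and −2.21 ± 0.20 (adjusted p = 2.8e-08) in WT cells, and KO exceeded WT by 1.98 ± 0.20 (adjusted p = 2.5e-07) with IFNγ and 0.77 ± 0.19 (adjusted p = 0.00431) with vehicle. The vehicle difference was 0.27, 1.27 and 1.80 in batches 1, 2 and 3 on the log2(CPM + 1) scale.

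Dhcr7, the reductase of the last step, had 64.5, 69.1, 58.9, 36.2 and 34.7 CPM in KO IFNγ and 89.7, 95.5, 90.5, 79.0 and 72.0 CPM in KO vehicle libraries. WT values were 28.0, 26.8, 23.9, 41.5 and 31.6 CPM with IFNγ and 85.6, 86.1, 91.6, 48.4 and 50.8 CPM with vehicle. IFNγ lay below vehicle without overlap in both lines, at a log2 change of −0.73 ± 0.19 (adjusted p = 0.00446) in KO and −1.19 ± 0.19 (adjusted p = 3.1e-05) in WT cells. With IFNγ, KO libraries of batch 1 lay above WT libraries and the later ones overlapped them (log2 0.73 ± 0.19, adjusted p = 0.00514, with batch values 1.26, −0.20 and 0.13).

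Hsd17b7, a ketoreductase of the demethylation steps, stood out between the lines. It had 15.9, 15.9, 12.8, 0.624 and 4.42 CPM in KO IFNγ and 24.2, 21.3, 25.0, 10.5 and 12.9 CPM in KO vehicle libraries. WT libraries held 1.32, 1.18, 1.36, 0.780 and 0.557 CPM with IFNγ and 5.87, 5.99, 4.41, 1.61 and 0.504 CPM with vehicle. With vehicle every KO library was above every WT library and the difference was 6.11-fold (log2 2.61 ± 0.39, adjusted p = 4.2e-05). With IFNγ the difference was 8.25-fold (log2 3.04 ± 0.43, adjusted p = 1.7e-05), with KO replicate 4 inside the WT range and batch values of 2.79, −0.13 and 1.80 on the log2(CPM + 1) scale. At WT levels near 1 CPM, the added 1 shrinks these batch values. Its log2 change with IFNγ was −1.26 ± 0.37 (adjusted p = 0.0103) in KO cells, not passing without KO vehicle replicate 5 (log2 −1.05, adjusted p 0.051), and −1.69 ± 0.43 (adjusted p = 0.00244) in WT cells.

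Nsdhl and Sc5d, a sterol dehydrogenase and a sterol desaturase, fell, with log2 changes of −0.69 ± 0.16 and −0.46 ± 0.11 in KO and −0.95 ± 0.16 and −0.82 ± 0.11 in WT cells. Both were higher in KO than in WT cells on the log2 scale, with IFNγ by 0.78 ± 0.16 and 0.94 ± 0.11 and with vehicle by 0.52 ± 0.16 and 0.58 ± 0.11. The vehicle difference of Nsdhl did not pass without WT vehicle replicate 4 or 5 or KO vehicle replicate 4 (log2 0.39 to 0.45, adjusted p 0.053 to 0.067). Its WT change with IFNγ was −1.32, −0.22 and −0.28 in batches 1, 2 and 3 on the log2(CPM + 1) scale. Tm7sf2, Msmo1 and Ebp, a sterol reductase, a methyl oxidase and a sterol isomerase, passed in none of the 4 comparisons of groups over all libraries, with changes of 0.15, −0.27 and −0.15 in KO and −0.50, −0.10 and −0.23 in WT cells. Leaving out 1 library let Tm7sf2 pass in WT cells (WT vehicle or IFNγ replicate 5, log2 −0.69 to −0.68, adjusted p 0.036) and as higher in KO than in WT cells with IFNγ (KO IFNγ, WT IFNγ or WT vehicle replicate 5, log2 0.63 to 0.80, adjusted p 0.025 to 0.048). A protein-coding gene on the same strand, Vps51, shares 12.1% of the Tm7sf2 exon length, so the Tm7sf2 counts are uncertain in level. Ebp passed in WT cells without WT IFNγ replicate 5 (log2 −0.40, adjusted p 0.041) and between the lines with IFNγ without WT IFNγ replicate 4 or 5 (log2 0.49 to 0.57, adjusted p 0.010 to 0.034). Msmo1 in WT cells was at −0.71, 0.46 and 1.42 in batches 1, 2 and 3, lower with IFNγ in batch 1 and higher in the later batches.

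The regulators moved in different directions. Srebf1, the SREBP gene that mainly drives fatty acid synthesis, had 208, 226, 217, 137 and 125 CPM in KO IFNγ and 292, 305, 289.8, 288 and 229 CPM in KO vehicle libraries. WT libraries had 114, 113, 114, 90.7 and 121 CPM with IFNγ and 295, 292, 292, 186 and 143 CPM with vehicle. Neither line overlapped between treatments, and Srebf1 fell, with log2 changes of −0.66 ± 0.14 (adjusted p = 9.9e-04) in KO and −1.07 ± 0.14 (adjusted p = 3.6e-06) in WT cells. With IFNγ every KO library was above every WT library (log2 0.67 ± 0.14, adjusted p = 9.2e-04).

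Srebf2, the SREBP gene that mainly drives sterol synthesis, had 206, 219.6, 215, 223 and 146 CPM in KO IFNγ and 319, 323, 345, 316 and 284 CPM in KO vehicle libraries. WT libraries had 83.3, 83.7, 84.7, 209 and 118 CPM with IFNγ and 290.4, 298, 295, 223 and 224 CPM with vehicle. WT IFNγ replicate 4 was far above the other 4 libraries of its group, close to the later WT vehicle libraries. Srebf2 fell, with log2 changes of −0.67 ± 0.19 (adjusted p = 0.00854) in KO and −1.25 ± 0.20 (adjusted p = 2.2e-05) in WT cells and was higher in KO than in WT cells with IFNγ (log2 0.83 ± 0.19, adjusted p = 0.00205), with batch values of 1.34, 0.09 and 0.31 on the log2(CPM + 1) scale.

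Scap, the SREBP escort, ran the other way between the lines. It had 31.0, 30.4, 29.9, 21.5 and 20.7 CPM in KO IFNγ and 35.5, 36.7, 35.8, 27.0 and 36.9 CPM in KO vehicle libraries. WT libraries had 41.8, 44.0, 42.5, 43.4 and 28.6 CPM with IFNγ and 76.4, 72.2, 68.9, 55.0 and 40.5 CPM with vehicle. KO vehicle libraries all lay below WT vehicle libraries, and Scap was the 1 member called lower in KO cells, at a log2 difference of −0.60 ± 0.13 (adjusted p = 0.00111) with IFNγ and −0.83 ± 0.13 (adjusted p = 6.2e-05) with vehicle. With IFNγ it fell, with log2 changes of −0.39 ± 0.13 (adjusted p = 0.0194) in KO cells, a call lost without KO vehicle replicate 5 (log2 −0.24, adjusted p 0.098), and −0.63 ± 0.13 (adjusted p = 3.5e-04) in WT cells. A transcript on the opposite strand, 5830462I19Rik, shares 13.2% of its exon length.

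The Insig genes, whose proteins retain Scap, diverged. Insig1 had 77.1, 79.5, 91.6, 264 and 77.8 CPM in KO IFNγ and 86.1, 86.2, 96.7, 105 and 71.6 CPM in KO vehicle libraries. WT libraries had 22.2, 24.2, 22.4, 27.8 and 15.6 CPM with IFNγ and 105, 115, 114, 46.1 and 40.6 CPM with vehicle. WT IFNγ libraries lay below all others, and KO IFNγ replicate 4 lay far above all others. The log2 change of Insig1 in KO cells, 0.31 ± 0.28 (adjusted p = 0.391), did not pass, and in WT cells it fell, at −1.93 ± 0.29 (adjusted p = 1.6e-05). With IFNγ it was 4.99-fold higher in KO than in WT cells (log2 2.32 ± 0.30, adjusted p = 5.5e-06).

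Insig2 had 42.6, 40.6, 44.4, 118 and 126 CPM in KO IFNγ and 36.1, 39.7, 33.4, 61.2 and 51.2 CPM in KO vehicle libraries. WT libraries had 38.5, 35.5, 35.3, 129 and 95.5 CPM with IFNγ and 13.0, 16.8, 15.1, 46.0 and 49.2 CPM with vehicle. Batches 2 and 3 were higher than batch 1 in every group, so the treatments overlapped across batches, while within batch 1 IFNγ lay above vehicle in both lines. Insig2 rose, with log2 changes of 0.55 ± 0.17 (adjusted p = 0.0122) in KO and 1.26 ± 0.17 (adjusted p = 3.5e-06) in WT cells, and was higher in KO than in WT cells with vehicle (log2 0.89 ± 0.17, adjusted p = 4.7e-04). The rise in KO cells did not pass without KO vehicle replicate 4 or 5 (log2 0.39 to 0.42, adjusted p 0.054 to 0.055).

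**Figure D3:**
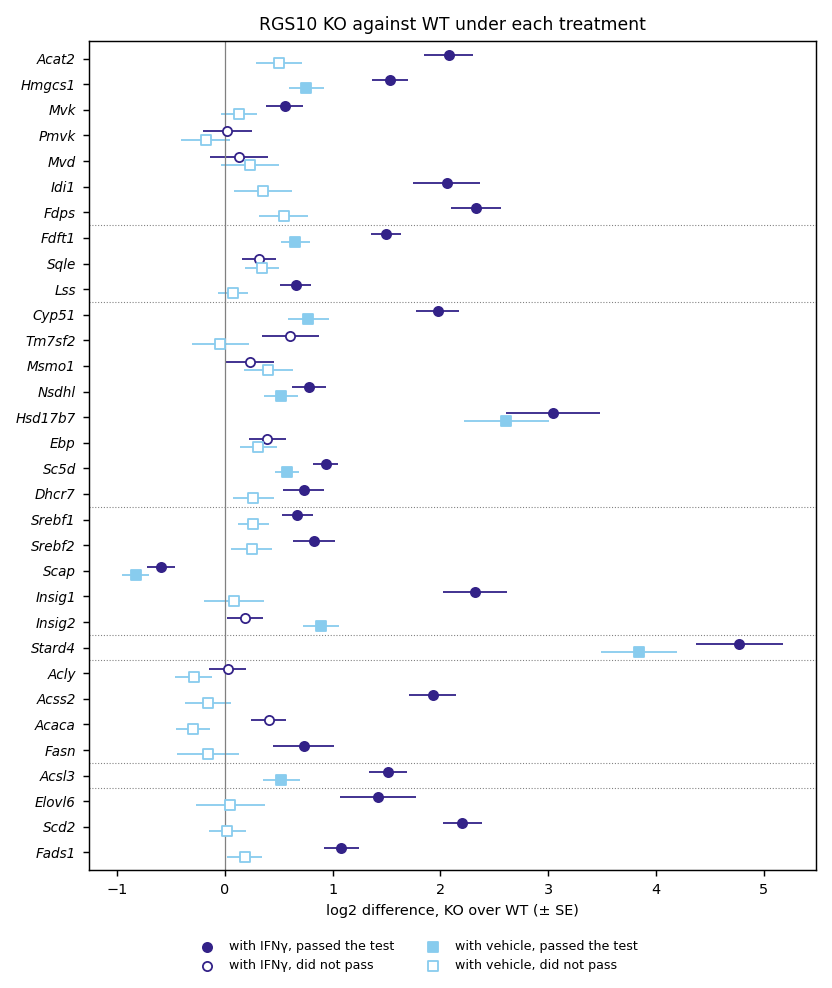
Log2 difference of KO over WT cells (± SE) of the 32 tested members with IFNγ (circles) and with vehicle (squares), with filled symbols for members that passed the test. With IFNγ 22 members were higher and 1, Scap, lower; with vehicle 9 were higher and 1, Scap, lower, and Stard4 has the highest value under both, at 4.78 with IFNγ and 3.84 with vehicle.

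Set against WT, KO cells had more transcript of most members with IFNγ and of fewer members with vehicle. With IFNγ 22 of 32 members were higher and 1 lower in KO cells, against 20.02% and 18.97% of all tested genes, with a median log2 difference of 0.80 against 0.01 over all genes. Every KO library exceeded every WT library for 13 members, against 6.53% of genes. With vehicle 9 members were higher and 1 lower in KO cells, against 12.5% and 14.8% of all genes, with a median of 0.26 against 0.03. Every KO vehicle library exceeded every WT vehicle library for 5 members (Hmgcs1, Fdft1, Hsd17b7, Stard4 and Acsl3), against 11.8% of genes, so that this count is near the share among all genes. The 2 comparisons of lines, with IFNγ and with vehicle, contrast different libraries. They are not independent, since 1 fit of all 20 libraries gave both their spread and batch terms. Each also shares its libraries with the IFNγ responses above.

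Stard4, a cytosolic carrier of cholesterol, differed most between the lines. It had 382, 416, 369, 112 and 79 reads in KO IFNγ and 652, 645, 577, 484 and 351 reads in KO vehicle libraries. WT libraries had 5, 12, 5, 5 and 13 reads with IFNγ and 33, 24, 22, 33 and 27 reads with vehicle. KO and WT were far apart under both treatments, 27.4-fold with IFNγ (log2 4.78 ± 0.41, adjusted p = 3.1e-08) and 14.3-fold with vehicle (log2 3.84 ± 0.35, adjusted p = 8.9e-08). The IFNγ difference was 3.62, 2.40 and 1.63 in batches 1, 2 and 3 on the log2(CPM + 1) scale, lower in the later batches (adjusted p = 0.00145). WT IFNγ libraries held 0.194 to 0.804 CPM, so the 1 added to each CPM shrinks these batch values below the fitted log2. Over the alternatives the fitted log2 value ran from 3.10 to 5.72. With IFNγ it fell, with log2 changes of −1.01 ± 0.31 (adjusted p = 0.012) in KO cells, where the groups overlapped across batches, and −1.94 ± 0.42 (adjusted p = 5.6e-04) in WT cells, where they did not.

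Acetyl-CoA for both routes comes from Acly, which cleaves citrate, and Acss2, which activates acetate. Acly fell, with log2 changes of −0.67 ± 0.17 (adjusted p = 0.00399) in KO and −0.99 ± 0.17 (adjusted p = 6.7e-05) in WT cells, and KO against WT passed under neither treatment over all libraries, though it passed with vehicle without KO IFNγ replicate 4 (log2 −0.30, adjusted p 0.020). Acss2 had 9.74, 10.7, 8.43, 24.3 and 14.8 CPM in KO IFNγ and 5.70, 7.19, 7.88, 10.2 and 9.02 CPM in KO vehicle libraries. WT libraries had 2.09, 2.49, 1.67, 7.17 and 5.57 CPM with IFNγ and 6.83, 7.70, 6.75, 10.8 and 13.8 CPM with vehicle. Within each batch, Acss2 was higher with IFNγ in KO cells and lower with IFNγ in WT cells, although the treatments overlapped across batches. Its log2 change was 0.67 ± 0.21 (adjusted p = 0.0138) in KO, a rise, and −1.41 ± 0.22 (adjusted p = 1.7e-05) in WT cells, a fall, and with IFNγ it was 3.80-fold higher in KO than in WT cells (log2 1.93 ± 0.22, adjusted p = 1.2e-06). The rise in KO cells did not pass without KO vehicle replicate 4 (log2 0.56, adjusted p 0.057).

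Fatty acid synthesis proper runs through Acaca, acetyl-CoA carboxylase, and Fasn, fatty acid synthase. Acaca fell, with log2 changes of −0.91 ± 0.16 (adjusted p = 1.5e-04) in KO and −1.61 ± 0.16 (adjusted p = 9.9e-08) in WT cells, and it was higher in KO than in WT cells with IFNγ when 1 library was left out, KO IFNγ replicate 4, KO vehicle replicate 5 or WT IFNγ replicate 4 (log2 0.42 to 0.58, adjusted p 0.0015 to 0.039). Fasn had 249, 285, 269, 62.0 and 84.0 CPM in KO IFNγ and 396, 423, 464, 318 and 360.3 CPM in KO vehicle libraries. WT libraries had 185, 178, 184, 22.5 and 40.8 CPM with IFNγ and 626, 611, 552, 297 and 319.7 CPM with vehicle. The later batches were lower in all 4 groups, most of all with IFNγ. Fasn fell, with log2 changes of −1.37 ± 0.29 (adjusted p = 0.00101) in KO and −2.25 ± 0.30 (adjusted p = 3.5e-06) in WT cells with no overlap of treatments in either line. KO exceeded WT with IFNγ by 0.73 ± 0.29 (adjusted p = 0.0499), a call at the threshold that was lost without any of 10 single libraries (WT vehicle replicates 1, 2, 3 and 5, WT IFNγ replicates 4 and 5, KO vehicle replicate 3 and KO IFNγ replicates 1, 2 and 3; log2 0.52 to 0.74, adjusted p 0.051 to 0.13).

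Acsl3, an acyl-CoA synthetase of lipid droplets, had 43.8, 45.2, 43.9, 33.4 and 20.4 CPM in KO IFNγ and 84.9, 86.1, 89.1, 87.3 and 86.4 CPM in KO vehicle libraries. WT libraries had 12.3, 11.8, 10.6, 19.0 and 10.7 CPM with IFNγ and 68.1, 77.4, 67.5, 51.0 and 44.0 CPM with vehicle. None of the 4 pairs of groups compared overlapped. Acsl3 fell, with log2 changes of −1.26 ± 0.17 (adjusted p = 1.2e-05) in KO and −2.25 ± 0.18 (adjusted p = 6.6e-09) in WT cells, and KO exceeded WT by 1.52 ± 0.18 (adjusted p = 1.8e-06) with IFNγ and 0.52 ± 0.17 (adjusted p = 0.027) with vehicle. The vehicle difference did not pass without WT vehicle replicate 4 or 5 or KO vehicle replicate 5 (log2 0.39 to 0.49, adjusted p 0.072 to 0.11).

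Chain elongation and desaturation followed. Elovl6, an elongase of saturated chains, had 13.6, 17.7, 16.1, 0.738 and 3.49 CPM in KO IFNγ and 43.5, 44.4, 42.4, 28.0 and 33.6 CPM in KO vehicle libraries. WT libraries had 4.43, 4.36, 4.76, 1.40 and 2.04 CPM with IFNγ and 48.5, 52.6, 45.5, 25.7 and 24.7 CPM with vehicle. Treatments did not overlap, and in KO IFNγ cells replicates 4 and 5 were well below batch 1. Elovl6 fell, with log2 changes of −2.25 ± 0.34 (adjusted p = 4.1e-05) in KO and −3.62 ± 0.37 (adjusted p = 1.3e-07) in WT cells, the largest called fall among the members in each line, and with IFNγ it was higher in KO than in WT cells (log2 1.42 ± 0.35, adjusted p = 0.00336). That difference was 1.60, −0.47 and 0.56 in batches 1, 2 and 3 on the log2(CPM + 1) scale, lower in the later batches (adjusted p = 0.014), and it did not pass in batches 2 and 3 alone (log2 0.17).

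Scd2 (ENSMUSG00000025203), the main stearoyl-CoA desaturase of these cells, had 549, 571, 582, 257 and 370.2 CPM in KO IFNγ and 1154, 1207, 1257, 1099 and 956 CPM in KO vehicle libraries. WT libraries had 93.9, 95.3, 84.1, 91.9 and 121 CPM with IFNγ and 1306, 1369, 1236, 968 and 780.2 CPM with vehicle. With vehicle the lines overlapped fully, and with IFNγ every KO library was above every WT library. Scd2 fell, with log2 changes of −1.32 ± 0.17 (adjusted p = 7.7e-06) in KO and −3.50 ± 0.19 (adjusted p = 3.4e-11) in WT cells, and was 4.60-fold higher in KO than in WT cells with IFNγ (log2 2.20 ± 0.18, adjusted p = 2.0e-08).

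Scd1 (ENSMUSG00000037071), the paralog of Scd2 and so alike that reads may have been counted for either, was nearly absent. KO IFNγ libraries had 3, 0, 4, 0 and 0 reads and KO vehicle libraries 0, 8, 0, 5 and 1. WT IFNγ libraries had no read and WT vehicle libraries 10, 16, 2, 18 and 14. A count of 0 over the WT IFNγ group allows up to 0.0276 CPM, against 0.617 CPM over the WT vehicle group. The ratio of these values is 22.4, which leaves out the spread of the vehicle libraries, and Scd1 was not tested. Fads2, the first desaturase of polyunsaturated fatty acids, had 3 reads over the KO IFNγ group, 4 in WT vehicle replicate 5 and none in the other libraries, so no difference was detectable at this depth.

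Fads1, the desaturase that makes arachidonic acid, had 152, 154, 142, 91.8 and 85.7 CPM in KO IFNγ and 206, 219.9, 221, 217 and 192 CPM in KO vehicle libraries. WT libraries had 54.8, 62.7, 54.0, 87.9 and 35.5 CPM with IFNγ and 211, 223, 217, 154 and 140.0 CPM with vehicle. IFNγ libraries lay below vehicle libraries in both lines. Fads1 fell, with log2 changes of −0.79 ± 0.16 (adjusted p = 6.9e-04) in KO and −1.69 ± 0.17 (adjusted p = 8.2e-08) in WT cells and was higher in KO than in WT cells with IFNγ (log2 1.08 ± 0.17, adjusted p = 3.7e-05), with batch values of 1.37, 0.06 and 1.25 on the log2(CPM + 1) scale.

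**Figure D4:**
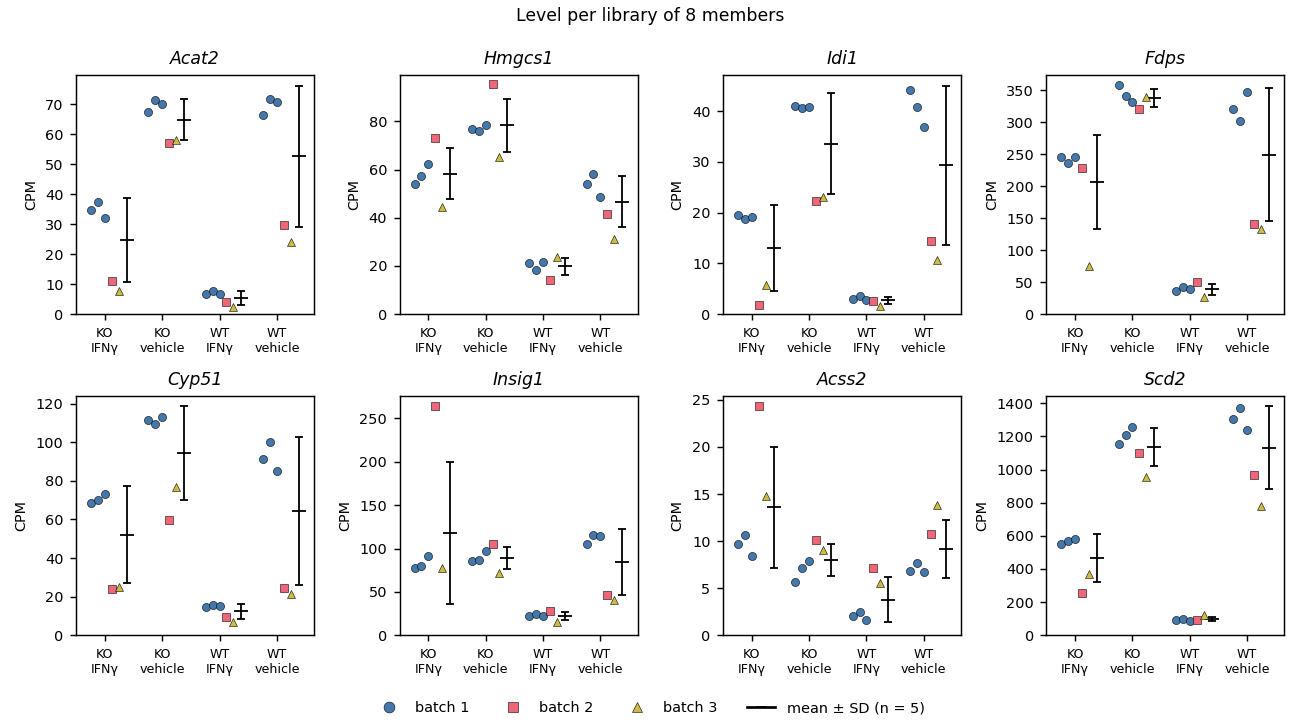
CPM in each library for 8 members by group, with batch shown by colour and shape and the mean ± SD of 5 libraries as a bar. KO vehicle values of Fdps stay between 321 and 358 CPM, whereas in WT vehicle cells the batch 2 and 3 values of Acat2, Idi1, Fdps, Cyp51 and Insig1 lie well below batch 1.

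The IFNγ responses of the lines were compared directly as their difference, KO minus WT, so that a positive value means that the KO change lay above the WT change. The difference was positive and called for 11 members, against 3.64% of all tested genes: Acat2 (log2 1.57 ± 0.31, adjusted p = 0.00474), Hmgcs1 (log2 0.77 ± 0.23, adjusted p = 0.0459), Idi1 (log2 1.70 ± 0.41, adjusted p = 0.0169), Fdps (log2 1.78 ± 0.32, adjusted p = 0.00269), Fdft1 (log2 0.84 ± 0.19, adjusted p = 0.0131), Cyp51 (log2 1.20 ± 0.27, adjusted p = 0.012), Insig1 (log2 2.23 ± 0.40, adjusted p = 0.00281), Acss2 (log2 2.09 ± 0.30, adjusted p = 5.0e-04), Acsl3 (log2 0.99 ± 0.25, adjusted p = 0.02), Scd2 (log2 2.18 ± 0.25, adjusted p = 4.9e-05) and Fads1 (log2 0.90 ± 0.23, adjusted p = 0.0243). In the other direction edgeR called 0 members, against 2.86% of genes, with 1 at an unadjusted p under 0.05, Insig2 (log2 −0.71 ± 0.24, adjusted p = 0.0786), and DESeq2 and limma also called 0. The median over the 32 members was 0.62, against 0.02 over all genes. The call for Hmgcs1 was lost when any 1 library was left out except WT vehicle replicates 4 and 5, WT IFNγ replicate 5, KO vehicle replicate 4 and KO IFNγ replicate 5 (log2 0.64 to 0.81, adjusted p 0.052 to 0.092). That for Fads1 was lost without WT IFNγ replicate 1 or 3, KO vehicle replicate 1, 2 or 3 or KO IFNγ replicate 1 or 2 (log2 0.84 to 0.88, adjusted p 0.051 to 0.057). Leaving out 1 library also brought calls for 7 members that did not otherwise pass. Acaca passed without KO IFNγ replicate 4, KO vehicle replicate 5 or WT IFNγ replicate 4 (log2 0.82 to 0.88), Acly without KO IFNγ replicate 4 (0.55), and Elovl6 without KO IFNγ replicate 4 or 5 (1.54 to 1.68). Lss passed without KO vehicle replicate 5 or replicate 4 of WT IFNγ or WT vehicle (0.67 to 0.71), Srebf1 without WT IFNγ replicate 5 (0.58), Srebf2 without WT IFNγ replicate 4 (0.86), and Insig2, in the negative direction, without KO vehicle replicate 4 or 5 (−0.87 to −0.82).

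This difference rested on batch 1. Within batch 1 alone, 30 of 32 members had a called positive difference, against 29.7% of genes, and the median difference on the log2(CPM + 1) scale was 0.96. In batches 2 and 3, with 1 library per group each, the medians were −0.24 and −0.09, and edgeR on these 8 libraries called 0 of 33 members positive, against 0.728% of genes, with 4 at an unadjusted p under 0.05. Without the IFNγ libraries of batches 2 and 3 it called 27 of 33 members positive, against 3154 of 14143 genes. Without batch 2 it called 18 of 32, against 1083 of 13727 genes. Calls among all genes rose as well in these settings, from 500 of 13755 over all libraries.

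**Figure D5:**
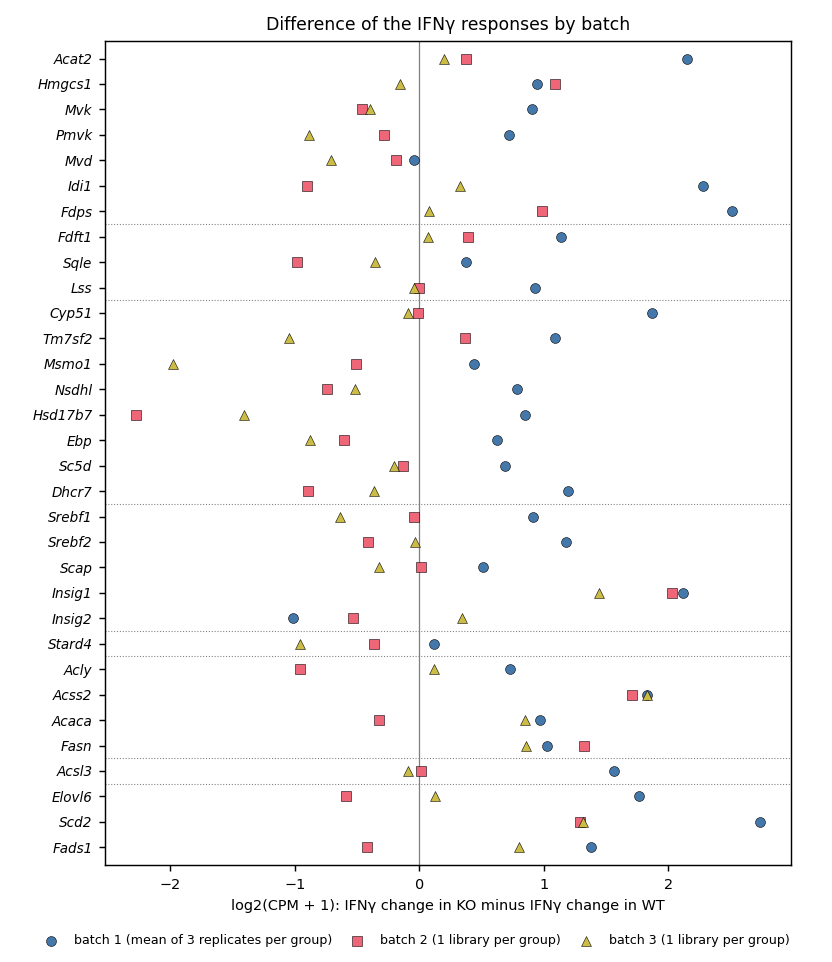
Difference of the IFNγ responses, KO minus WT, on the log2(CPM + 1) scale for the 32 tested members in each batch (batch 1: mean of 3 replicates per group; batches 2 and 3: 1 library per group). In batch 1, 2 of 32 values are below 0, in batch 2, 21, and in batch 3, 19; Insig1, Acss2, Fasn and Scd2 are above 0.8 in all 3 batches.

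Of the 32 members, 7 had a difference above 0 in every batch: Acat2, Fdps, Fdft1, Insig1, Acss2, Fasn and Scd2. The share of all genes with such values was not computed, so this count is not a result about the members as a set. The batch values of the difference were 1.83, 1.71 and 1.83 for Acss2, 2.12, 2.03 and 1.45 for Insig1, 2.74, 1.29 and 1.32 for Scd2 and 1.03, 1.32 and 0.85 for Fasn in batches 1, 2 and 3, where the difference of Fasn over all libraries did not pass (log2 0.89 ± 0.40, adjusted p = 0.207). Other called differences were smaller in the later batches: 2.15, 0.37 and 0.20 for Acat2, 2.51, 0.99 and 0.08 for Fdps, 1.14, 0.39 and 0.07 for Fdft1, 2.28, −0.91 and 0.33 for Idi1, 1.87, −0.01 and −0.09 for Cyp51 and 1.57, 0.02 and −0.09 for Acsl3. That of Hmgcs1 was 0.94, 1.09 and −0.16 and that of Fads1 1.38, −0.42 and 0.80, so 1 later batch of each stood apart from the other.

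A test of batches 2 and 3 against batch 1, an interaction of group and batch with 11 residual degrees of freedom, gave these changes a number. It applies 1 spread to the close replicates of batch 1 (biological coefficient of variation 5.89%) and to single libraries of the later batches (24.2% over all 20), so its p-values are a guide. The main model of group and batch does the same and takes 1 batch shift for all groups, so its SE and p-values share this limit. Calls in batch 1 alone rest on the close spread of its replicates. The difference of responses was lower in the later batches for 23 of 32 members and higher for 1, Insig2, against 10.97% and 10.4% of genes. It did not pass for 8 members: Insig1, Acss2, Fasn, Hmgcs1, Mvd, Acaca, Scap and Stard4 (adjusted p 0.0788 to 0.916). The KO response was higher in the later batches for 3 members and lower for 13, against 13.2% and 15.8% of genes. The WT response was higher for 17 members and lower for 1, Fasn, against 16.2% and 19.4%.

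The same test between lines gave 2 members higher and 17 lower in the later batches with IFNγ, against 15.4% and 14.8% of genes. With vehicle it gave 9 higher and 1 lower, against 2.66% and 2.92%. The median KO over WT difference of the members was 1.20, 0.40 and 0.62 with IFNγ and 0.01, 0.61 and 0.71 with vehicle in batches 1, 2 and 3. In batch 1 alone, 10 of 32 members were called higher and 8 lower in KO vehicle cells (all genes: 3926 and 4146 of 13833). Without the IFNγ libraries of batches 2 and 3, the fit called 19 of 33 members higher and 5 lower there (all genes: 3868 and 3737 of 14143). Neither count of lower members exceeded the share among all genes.

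The level of the members also shifted between batches within a group. Relative to batch 1, the median log2(CPM + 1) difference of the members was −0.46 in batch 2 and −0.59 in batch 3 of KO IFNγ, and 22 of 32 members were below batch 1 in both, against 32.1% of genes. In KO vehicle the shifts were −0.11 and −0.22 (17 members, against 27.4% of genes). In WT IFNγ they were 0.19 and −0.08 (8 members, against 35.9%), and in WT vehicle −0.59 and −0.76 (28 members, against 33.4%). With 1 library per group in each later batch, what moved these levels was not tested.

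Cell cycle genes also changed. Of 16 on a list, 11 fell with IFNγ in KO cells (median log2 −0.85), against 21.8% of all genes, and 15 in WT cells (median −1.91), against 29.9%. With IFNγ 14 were higher in KO than in WT cells, against 20.02% of all genes. Their summed level ran from 1344 to 3587 CPM in KO IFNγ, 3257 to 4598 CPM in KO vehicle, 562 to 1908 CPM in WT IFNγ and 2145 to 4602 CPM in WT vehicle libraries. The part of the cell cycle genes, of the microglial marker level given above and of the library measures of the later IFNγ libraries in the members' changes was not tested.

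Genes around the pathway moved both ways. Of 57 related genes tested (58 listed, chosen with earlier results of these data known), 13 rose and 12 fell with IFNγ in KO cells, close to the 21.4% and 21.8% of all genes, and 24 rose and 19 fell in WT cells, against 28.98% and 29.9%. The counts of the lists that follow are to be read against these shares. Of 11 sterol uptake, trafficking and storage genes, 6 rose and 1 fell in KO and 8 rose and 1 fell in WT cells. Npc1 and Npc2, which export cholesterol from lysosomes, rose, with log2 changes of 0.88 ± 0.13 and 1.60 ± 0.24 in KO and 1.01 ± 0.13 and 2.70 ± 0.25 in WT cells. Lipa, the lysosomal acid lipase, rose, with log2 changes of 0.95 ± 0.11 and 0.62 ± 0.11, and Gramd1b, a sterol transporter at membrane contacts, by 0.67 ± 0.13 and 1.03 ± 0.13, in KO and WT cells. With IFNγ, 6 genes of this list were lower in KO than in WT cells, against 18.97% of all tested genes. Npc2 was among them, at a log2 difference of −1.76 ± 0.24.

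The SREBP proteases fell. The log2 change of Mbtps1 was −0.74 ± 0.13 in KO and −1.45 ± 0.13 in WT cells, and that of Mbtps2 was −0.58 ± 0.11 in KO and −0.71 ± 0.11 in WT cells. Of the 14 genes of SREBP processing, sensing and turnover, 3 rose and 2 fell in KO, where the shares of all genes were 21.4% and 21.8%, and 8 rose and 3 fell in WT cells, where they were 28.98% and 29.9%. Nr1h2, an LXR sterol sensor, rose, with log2 changes of 0.76 ± 0.11 in KO and 1.21 ± 0.11 in WT cells, and its relative Nr1h3 was lower in KO than in WT cells with IFNγ (log2 −1.96 ± 0.18) and with vehicle (−1.04 ± 0.18). Of 9 genes of the isoprenoid branches, 2 fell in KO and 5 fell and 1 rose in WT cells, with the prenyltransferase subunit Fnta at −0.29 ± 0.10 and −0.76 ± 0.10.

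Of 15 genes of fatty acid supply, elongation and activation, 1 rose and 4 fell in KO and 3 rose and 7 fell in WT cells. Acsl1, another acyl-CoA synthetase, rose, with log2 changes of 1.01 ± 0.11 in KO and 1.34 ± 0.11 in WT cells, where Acsl3 fell. Me1, the malic enzyme that supplies NADPH, was higher in KO than in WT cells, by 0.89 ± 0.10 with IFNγ and 1.92 ± 0.10 with vehicle, and its response was lower in KO cells (log2 −1.03 ± 0.14, adjusted p = 4.1e-04). Tecr, the reductase of chain elongation, fell, with log2 changes of −0.59 ± 0.15 in KO and −1.41 ± 0.15 in WT cells. Of 8 glycerolipid genes, 3 rose and 3 fell in KO and 4 rose and 3 fell in WT cells. Plin2, a lipid droplet coat protein, was 5.67-fold lower in KO than in WT cells with IFNγ (log2 −2.50 ± 0.22, adjusted p = 4.5e-08), and the difference of its IFNγ responses was −2.57 ± 0.30 (adjusted p = 6.6e-05), while Dgat2, which makes triglyceride, fell, with log2 changes of −1.45 ± 0.28 in KO and −2.22 ± 0.28 in WT cells.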

How the data were processed

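The data were raw read counts per gene as deposited by the authors, for 20 libraries of poly(A)-enriched RNA. Per the submitters' processing notes, FastQC, Trim Galore, STAR and DESeq2 were used with the genome build GRCm39, without versions. For the counting tool, annotation release and strand setting, the value is not given in the sources used here. All count columns matched a library. Symbols and exon lengths came from GENCODE vM21 (GRCm38), which named 51948 of the 56941 IDs (91.2%), and unnamed IDs took 0.482% of all counts. Promoters came from RefSeq for GRCm38.p6, and no coordinate was converted between builds. The result for 1 promoter motif is not reported here.

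TMM scaling was done with edgeR 4.0.16 under R 4.3.3, and low counts were filtered with filterByExpr, which left 13755 genes. A quasi-likelihood model of group and batch, robust, with 14 residual degrees of freedom, was fitted to all of them, and a gene was called where its p, adjusted by Benjamini-Hochberg within each of the 5 comparisons, was under 0.05. Changes are described as rises or falls only where called. Levels are CPM on TMM-scaled sizes. Changes are log2 ± SE, with n = 5 libraries per group. Within-batch values are differences of mean log2(CPM + 1), which are shrunk for members at a few CPM or less. Floors are 3 counts over a group and cover counting error only. DESeq2 1.42.0 and limma 3.58.1 (voom) were run as alternatives, and the code was tested on simulated data. Deviations of same-numbered libraries within batch 1 correlated at −0.042 to 0.038, which gave no ground to pair libraries by number. No replicates were copies (chi-squared per degree of freedom 3.54 or more). Every member was named. Values per library are given for a set list, for each member called in the difference of responses and for the member with the largest called change each way. Of related lists, called genes with small p are named. The members and lists were chosen with earlier results of these data known.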

Additional observations from a re-analysis of the deposited data

Results flagged for a closer look

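Of 128 groups of 5 libraries tested, 14 held a library far from the other 4 by Dixon's rule (critical value 0.71), where chance flags about 1 in 20 groups. These 14 values came from 6 libraries, the IFNγ libraries of both lines and the KO vehicle libraries in batches 2 and 3. Among KO IFNγ libraries, replicate 4 was high for Mvd (116.3 CPM) and Insig1 (263.8 CPM), and replicate 5 was low for Fdps (75.8 CPM) and Srebf2 (146.0 CPM). Among KO vehicle libraries, replicate 4 was high for Mvd (57.9 CPM) and low for Scap (27.0 CPM), and replicate 5 was low for Nsdhl (35.8 CPM) and Srebf1 (229 CPM). Among WT IFNγ libraries, replicate 4 was high for Fdft1 (17.9 CPM), Srebf2 (209 CPM) and Acsl3 (19.0 CPM) and low for Srebf1 (90.7 CPM), and replicate 5 was high for Msmo1 (108 CPM) and low for Scap (28.7 CPM).

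The IFNγ responses of the lines differed, KO minus WT, in 11 members by the test of the difference itself (edgeR, adjusted p under 0.05): log2 1.57 for Acat2, 0.77 for Hmgcs1, 1.70 for Idi1, 1.78 for Fdps, 0.84 for Fdft1, 1.20 for Cyp51, 2.23 for Insig1, 2.09 for Acss2, 0.99 for Acsl3, 2.18 for Scd2 and 0.90 for Fads1. Values by batch stand with the comparison.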

How the results depend on the processing

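Over 32 alternatives, 12 of the 25 calls with IFNγ in KO, 14 of 27 in WT, 9 of 23 between the lines with IFNγ, 2 of 10 with vehicle (Hsd17b7 and Stard4) and 0 of 11 in the difference of responses (edgeR) held in every one. With batches 2 and 3 alone (8 libraries), edgeR called 1 of 33 members higher with IFNγ in KO (all genes: 2185 of 14288). In WT it called 4 higher and 14 lower with IFNγ (all genes: 2444 and 2657). In KO against WT with IFNγ it called 10 higher and 0 lower, with 1 lower at an unadjusted p under 0.05 (all genes: 912 and 1008). It called 0 lower with vehicle (0 unadjusted, all genes: 633) and 0 positive in the difference (4 unadjusted, all genes: 104). Batch 1 alone gave 8 lower in KO against WT with vehicle (all genes: 4146 of 13833). It gave 30 positive and 1 negative difference (all genes: 4108 and 2988). Without a batch term the counts were 0 higher and 14 lower with IFNγ in KO (all genes: 2292 and 1605 of 13755). In KO against WT with vehicle 5 were higher (all genes: 944), and 3 differences were positive (all genes: 70). The other settings on batches were chosen after seeing the data. Without the IFNγ libraries of batches 2 and 3, 19 members were higher and 5 lower in KO against WT with vehicle (all genes: 3868 and 3737 of 14143). In that setting 27 differences were positive (all genes: 3154). Without batch 2, 2 members were lower in KO against WT with vehicle (all genes: 2414 of 13727) and 18 differences were positive (all genes: 1083). Without batch 3, 1 was higher with IFNγ in KO (all genes: 2433 of 13805) and 1 difference was negative (all genes: 699). Leaving out 1 library in turn gave 0 to 2 members higher with IFNγ in KO. The count was 0 without KO vehicle replicate 4 (all genes: 2522 of 14006) and 1 without replicate 5 (2413 of 14008). In KO against WT with vehicle 1 to 3 members were lower. The count was 3 without KO IFNγ replicate 4 (all genes: 2370 of 13951) and 2 without KO vehicle replicate 2 (1786 of 14031) or WT vehicle replicate 3 (1835 of 14069). Negative differences numbered 0 to 1, with 1 without KO vehicle replicate 4 (all genes: 421 of 14006) or 5 (590 of 14008).

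The sign of a log2 value called over all libraries or under the alternative turned in these cases. In batch 1 alone they were Pmvk in WT with IFNγ (−0.67, and −0.59 without the later IFNγ libraries), Insig1 (−0.33), Lss (−0.19) and Scd2 (−0.12) in KO against WT with vehicle, and Msmo1 (0.48) and Sqle (0.42) in the difference. In batches 2 and 3 alone they were Msmo1 (0.99) and Mvd (0.99) in WT with IFNγ, Mvk (−0.11) and Dhcr7 (−0.057) in KO against WT with IFNγ, and Acsl3 (−0.041), Cyp51 (−0.023), Idi1 (−0.021) and the median (−0.14) in the difference. Signs also turned where neither value was called, the lowest being Hsd17b7 in the difference (0.43 over all libraries, −1.61 at the lowest). The cause was not tested. The replicate block gave 10 positive differences and 22 members lower with IFNγ in KO (all genes: 287 and 2692 of 13755). No count of members moved by over 1.5 times, so the replicate number as a block changed no count of that kind. Plain library totals moved the median of all genes with IFNγ from −0.02 to −0.16 in KO and from 0.01 to −0.21 in WT. In that setting 24 members in KO and 28 in WT were called lower (all genes: 3378 and 4875 of 13755).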
